A study of Macaca fascicularis with 64 samples.

Results

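The thymic epithelium genes KRT5, KRT14, KRT8, PSMB11, PRSS16, FOXN1, CCL25, AIRE, TP63 and CTSV were followed in RNA sequencing of cynomolgus monkeys (Macaca fascicularis). They were chosen by name, with earlier results of these data known. All 10 of them were listed among the 28141 genes of the table. Thymus came first, and the other tissues served as background. The newborn set held 56 libraries of 7 tissues (thymus, brain, muscle, liver, heart, lung and kidney). They came from the animals titled KO2 and KO3, labelled SIRT6 mutant, and from WT2 and WT3, labelled wild-type, with 2 libraries per animal and tissue. The sources used here do not give the kind of SIRT6 mutation. With 2 animals per genotype an exact two-sided permutation test cannot go below p = 0.33. A further 8 wild-type libraries came from fetal brain and muscle at gestation month 2 or 4.

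The thymus teaches developing T cells (thymocytes) on a scaffold of epithelium. In the outer cortex, epithelial cells help thymocytes to be positively selected on peptides that the cells make with their own proteases. In the inner medulla, other epithelial cells display proteins of many organs, so that thymocytes that react to self are removed. The transcription factor FOXN1 is needed for this epithelium to form, and thymocytes and epithelium depend on each other for normal architecture.

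The members were grouped by textbook place. PSMB11, the catalytic subunit of the thymoproteasome, PRSS16, the thymus-specific serine protease, the chemokine CCL25, the cysteine protease CTSV and the simple-epithelium keratin KRT8 stood for the cortex. The basal keratins KRT5 and KRT14 and the autoimmune regulator AIRE stood for the medulla. FOXN1 and TP63, the p63 transcription factor of stratified epithelium, act in both. KRT8 is also present in some medullary cells, and CCL25 is made in both compartments in mice, so the division is approximate. No member's sequence was in the sources used here, so none is printed.

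Levels are FPKM (fragment numbers divided by gene length and by the mapped total), and the level of an animal is the average over its repeat libraries. FPKM does not keep the read depth, so depth is unknown. The repeat libraries of an animal differed by at most 1.41-fold for any member in thymus, while the animals differed by 1.16-fold (CTSV) to 15.2-fold (KRT14).

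The thymus libraries carried the markers of thymus, and those of KO2 stood apart. The summed FPKM of 23 thymocyte genes was 1805 in KO2 and 4671 in KO3, against 4435 in WT2 and 5948 in WT3. Summed B cell genes measured 2.91 and 25.8 FPKM in KO2 and KO3, against 19.5 and 37.4 in WT2 and WT3. Genes of parathyroid and thyroid, glands that lie near the thymus, summed to at most 1.07 FPKM in any animal. SIRT6 itself was at 4.29 and 8.94 FPKM in KO thymus and 8.86 and 10.4 in WT thymus (limma adjusted p = 0.72), which does not check the genotype. In bulk tissue, fewer cells of a type and less RNA per cell cannot be told apart.

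Medullary genes had higher values in KO thymus, and the cortical genes had no common direction. KRT14 measured 239 FPKM in KO2 and 90.4 in KO3, against 15.7 in WT2 and 28.7 in WT3. KRT5 measured 198 and 93.6 FPKM in KO2 and KO3, against 28.02 and 29.7 in WT2 and WT3. For both keratins, which pair in the filaments of basal epithelial cells, every KO library lay above every WT library, with KO2 the highest animal. None of the 10 members passed the test of KO against WT, in which limma called 1 of 12961 genes.

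**Figure D1:**
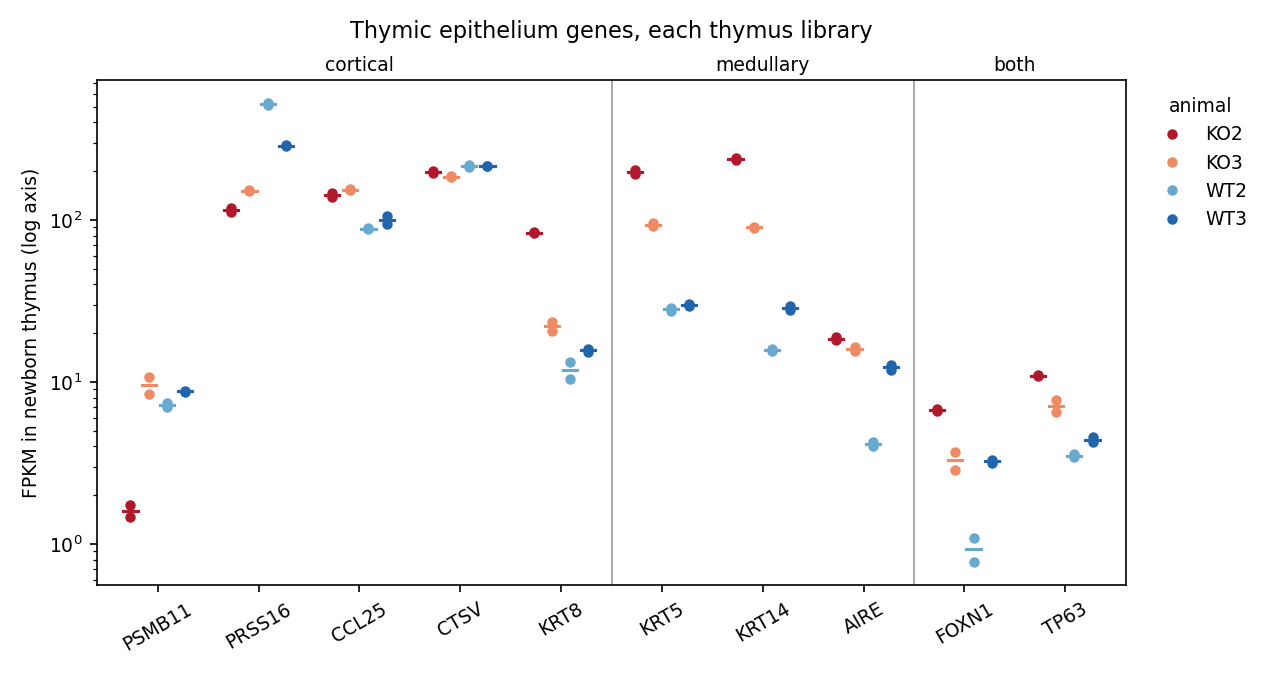
FPKM of each of the 10 genes in each newborn thymus library on a log axis, with points for libraries and short bars for the mean of an animal's 2 libraries. KO2 and KO3 lie above WT2 and WT3 for KRT5 (198 and 93.6 against 28.02 and 29.7) and below them for PRSS16 (115 and 151 against 522 and 288).

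AIRE, which drives display of organ-specific proteins in mature medullary cells, measured 18.4 FPKM in KO2 and 15.9 in KO3, against 4.15 in WT2 and 12.3 in WT3. Its KO libraries lay above all WT libraries, and the WT animals differed by 2.96-fold, more than the 1.16-fold between the KO animals. WT2 was the low animal, and without it the log2 change was 0.45 in place of 1.13, both before the centring used further on.

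Among the cortical genes, PRSS16 and PSMB11 behaved unlike each other. PRSS16 measured 115 FPKM in KO2 and 151 in KO3, against 522 in WT2 and 288 in WT3. Every KO library lay below every WT library. PSMB11 measured 1.60 FPKM in KO2 and 9.51 in KO3, against 7.21 in WT2 and 8.73 in WT3. KO2 alone was low, while KO3 was the highest of the 4 animals.

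CCL25, which draws thymocyte precursors through the receptor CCR9, measured 143 and 154 FPKM in KO2 and KO3, against 88.5 and 99.8 in WT2 and WT3. Its libraries did not overlap between the genotypes. CTSV, which trims the chain bound to class II molecules in human thymus, was the steadiest member, at 197 and 185 FPKM in KO2 and KO3, against 215 in each of WT2 and WT3. CTSV is a close relative of CTSL, and its values are uncertain as far as reads can fit either gene, as are those of the keratins, whose relatives are also alike. The sources used here do not say how such reads were assigned. KRT8 measured 83.5 FPKM in KO2 and 22.1 in KO3, against 11.8 in WT2 and 15.7 in WT3. The KRT8 libraries did not overlap either, but KO2 stood 3.78-fold above KO3.

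The transcription factors lay between. FOXN1 measured 6.69 FPKM in KO2 and 3.28 in KO3, against 0.928 in WT2 and 3.23 in WT3. KO3 and WT3 were alike in FOXN1, so the groups overlapped. TP63 measured 10.9 and 7.12 FPKM in KO2 and KO3, against 3.50 and 4.40 in WT2 and WT3, with no overlap. TP63 was also present in muscle, and summed skeletal muscle genes came to 13.1 and 99.8 FPKM in KO2 and KO3 thymus, against 8.18 and 3.75 in WT2 and WT3, and their part in the TP63 values was not tested.

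In all, 6 of the 10 members had every KO thymus library above every WT library, against 9.81% of the genes tested, and 2 had every KO library below, against 19.8%. The 6 were CCL25, KRT8, KRT5, KRT14, AIRE and TP63, and the 2 were PRSS16 and CTSV. Since 2 libraries come from each animal, these are in effect orders of 2 against 2 animals. The 2 lay close to the share of all genes. The members were chosen with earlier results of these data known, so the excess of the 6 over their share is no independent finding. The same holds for the member counts at an unadjusted p further on.

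The log2 changes were fitted with limma on log2(FPKM + 1), with the animal as the replicate (n = 2 KO and 2 WT). The median change of all genes was −0.21, and member changes are given relative to it, while the p values test the change before this subtraction. KRT14 had the largest change of the members, 2.94 (SE 0.58, adjusted p = 0.69), followed by KRT5 at 2.40 (SE 0.50, adjusted p = 0.69). KRT8 was at 1.80 (SE 0.64), AIRE at 1.34 (SE 0.53), FOXN1 at 1.21 (SE 0.51), TP63 at 1.20 (SE 0.41) and CCL25 at 0.86 (SE 0.41). On the negative side PRSS16 was at −1.34 (SE 0.45) and PSMB11 at −0.57 (SE 0.63). CTSV was at 0.04 (SE 0.38), and its sign was negative before the subtraction, at −0.17.

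None of these passed, with 0.00772% of all genes called, and limma's adjusted p values ran from 0.69 to 0.89. At an unadjusted p under 0.05 there were 5 members, KRT14, KRT5, PRSS16, KRT8 and TP63, against 5.92% of all genes. The gene that limma called, which the table lists under LOC102144665, was at 1924 and 1650 FPKM in 1 library of WT2 and of WT3 and listed at 0 in the other 6 thymus libraries, and 0 genes were called when any of the 4 WT libraries was left out. Leaving out an animal leaves 1 animal in its group, which is then assumed to vary like the other group, the sole source of the spread. Without KO3, where limma called 533 genes in place of 1 and KO2 alone stood for KO, KRT14 (adjusted p = 0.031), KRT5 (0.031) and KRT8 (0.035) were among them. Without WT3, where limma called 45 genes, KRT14 was among them (0.035). Without KO2 the changes before centring were 2.04 for KRT14 and 1.66 for KRT5 (limma adjusted p = 0.43 and 0.41), KRT8 was at 0.66 in place of 1.60, and PSMB11 turned to 0.23. FOXN1, at 1.005 with all animals, was at 0.58 without KO2 and 0.44 without WT2.

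**Figure D2:**
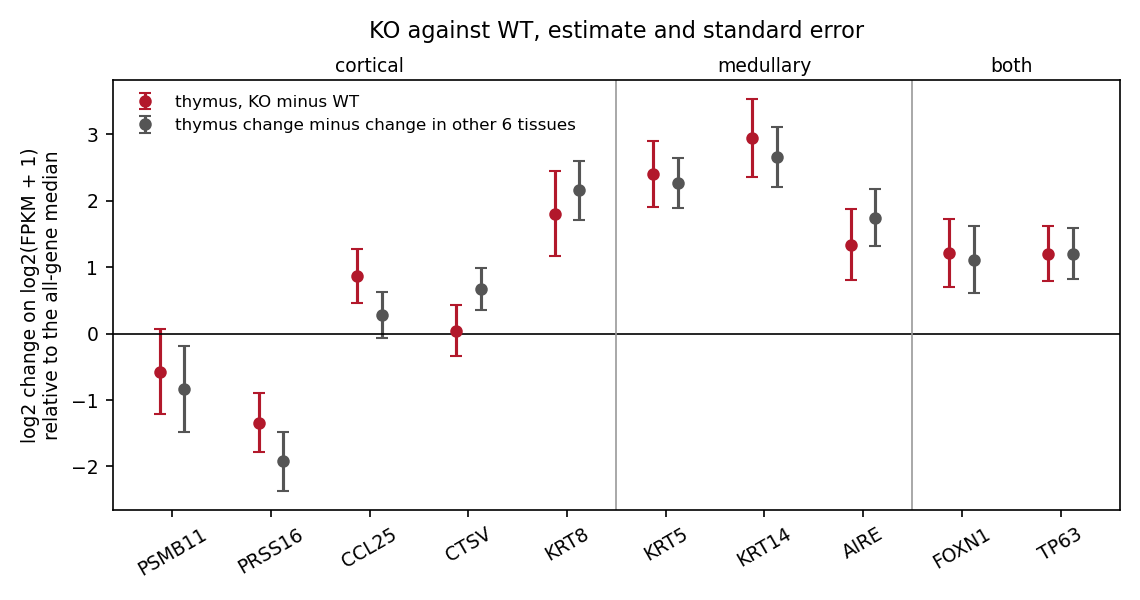
Log2 change of KO against WT with its standard error in thymus (red) and the thymus change minus the mean change in the other 6 tissues (grey), both relative to the median of all genes. KRT14 (2.94 and 2.66) and KRT5 (2.40 and 2.27) lie highest and PRSS16 (−1.34 and −1.92) lowest in both.

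The balance of cortical to medullary genes was then set out by animal. The mean log2(FPKM + 1) of the 5 cortical members minus that of the 3 medullary members was −0.72 in KO2 and 0.28 in KO3, against 2.23 in WT2 and 1.46 in WT3. The KO mean was 2.07 log2 units below the WT mean (−2.07), with a pooled SD of 0.63 between animals of a genotype. The cortical mean lay between 5.85 and 6.05 in all 8 libraries, and the medullary mean ran from 3.75 to 6.64. The narrow range of the cortical mean joins members with opposite signs, PRSS16 and PSMB11 below 0 and KRT8 and CCL25 above it, and without KRT8 the difference was −2.48. This difference of levels is a description of chosen genes and was not tested.

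**Figure D3:**
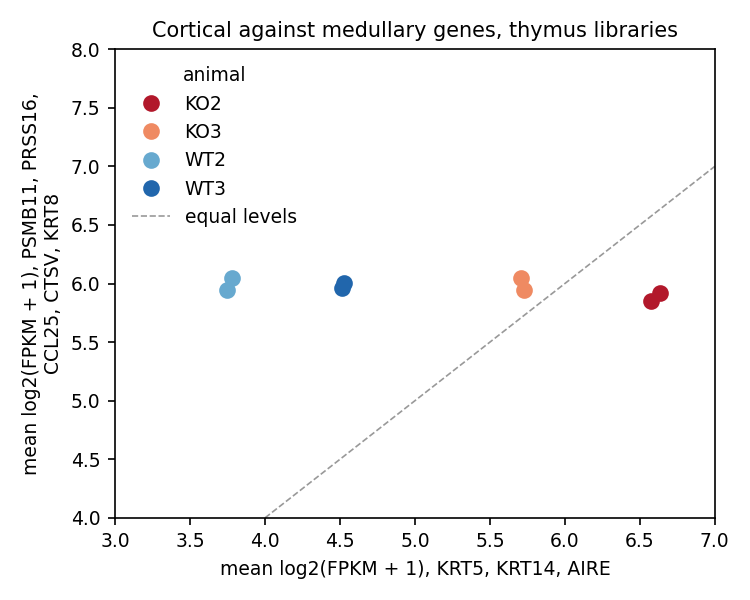
Each thymus library by its mean log2(FPKM + 1) of 3 medullary genes (horizontal) and 5 cortical genes (vertical), with a dashed line at equal levels. Libraries spread along the medullary axis from 3.75 to 6.64 and lie between 5.85 and 6.05 on the cortical axis, with only KO2 below the line.

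Single pairs of a cortical and a medullary gene showed how much the choice of genes mattered. The pairs differ in both genes, so their contrast cannot be credited to the cortical gene alone. PRSS16 over KRT14 was 0.482 in KO2 and 1.67 in KO3, against 33.2 in WT2 and 10.02 in WT3. PSMB11 over AIRE was 0.0868 in KO2 and 0.598 in KO3, against 1.74 in WT2 and 0.711 in WT3. KRT8 over KRT5, the keratin pair often used to tell cortex from medulla, was 0.423 in KO2 and 0.236 in KO3, against 0.422 in WT2 and 0.527 in WT3. The first ratio was lower in both KO animals by a wide margin, the second by a narrow one, and in the third KO2 and WT2 were alike.

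Other genes of the epithelium were read from lists, whose medians and changes are given before centring, beside −0.21 for all genes. Of 6 tested cortical genes besides the members, 0 passed limma's test, with a median log2 change of −0.10. In 2 of them all KO libraries lay below all WT libraries, against 19.8% of all genes. The endocytic receptor LY75 measured 5.12 and 8.91 FPKM in KO thymus, against 25.5 and 18.2 in WT thymus (log2 change −1.54, SE 0.45, limma adjusted p = 0.70). TBATA, a gene of thymus and brain, measured 71.9 and 195 FPKM in KO2 and KO3, against 270 and 200 in WT2 and WT3. KRT18, the partner of KRT8, measured 45.1 and 13.0 FPKM in KO2 and KO3, against 6.75 and 13.7 in WT2 and WT3. The chemokine CXCL12 measured 19.9 and 33.2 in KO thymus, against 40.2 and 28.5 in WT thymus. LY75 thus had PRSS16's order of animals within each genotype, and KRT18 had KO2 apart, as KRT8 did.

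Of 12 tested medullary genes besides the members, 0 passed, 11 had a positive change, against 35.4% of all genes, and the median was 0.46. In 3 of the 12 all KO libraries lay above all WT libraries, against 9.81% of all genes. The changes ran from −0.12 to 1.85, and the 4 genes given next are those with the smallest p of the list. KRT17, a keratin of basal and stressed epithelium, measured 514 and 109 FPKM in KO2 and KO3, against 75.5 and 56.0 in WT2 and WT3. The chemokine CCL21, which draws selected thymocytes into the medulla, measured 11.5 and 8.67 FPKM in KO thymus, against 4.99 and 3.51 in WT thymus. LTBR, the lymphotoxin receptor of medullary cells, measured 12.3 and 5.55 in KO thymus, against 2.94 and 4.30 in WT thymus. KRT19 measured 46.1 and 43.5 in KO thymus, against 13.4 and 32.3 in WT thymus. Without WT2 the list's median was 0.08, against −0.30 for all genes.

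The keratin KRT13 had the smallest p of 8 tested genes of cornified epithelium, the cells of Hassall bodies. It measured 22.7 and 13.5 FPKM in KO2 and KO3, against 1.20 and 3.38 in WT2 and WT3 (log2 change 2.58, SE 0.49, limma adjusted p = 0.60). The sigma 14-3-3 protein gene SFN measured 31.4 and 6.04 in KO thymus, against 1.84 and 4.66 in WT thymus. LOR, which encodes the cornified envelope protein loricrin, ran the other way, at 0.0669 and 0.658 in KO, against 0.890 and 3.82 in WT. The list had a median of 0.52 with 0 genes called, and without WT2 the median was −0.04.

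Of 8 tested epithelial regulators and general epithelial genes, 0 passed, 7 had a positive change, against 35.4% of all genes, and the median was 0.73. Without WT2 this median was 0.26, against −0.30 for all genes. HOXA3, which patterns the pharyngeal pouches from which the thymus arises, measured 2.25 and 1.61 FPKM in KO thymus, against 0.354 and 0.654 in WT thymus. PAX9, another pouch regulator, measured 8.35 and 4.86 in KO thymus, against 2.33 and 4.53 in WT thymus. EPCAM, an adhesion protein of epithelia, was at 3.58 and 2.44 in KO2 and KO3, against 0.644 and 2.32 in WT2 and WT3. Of 6 tuft cell genes, 2 were tested and 0 passed, with GNB3, a taste-signalling subunit, at 4.32 and 1.61 in KO, against 1.38 and 1.05 in WT.

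Genes that work beside single members were read next. Of the 10 other proteasome beta subunits, 0 passed, 1 had a positive change, against 35.4% of all genes, and the median was −0.33. PSMB5, the standard subunit in whose place PSMB11 is built in, was chosen after its values were seen, and measured 30.9 and 42.8 FPKM in KO thymus, against 26.4 and 36.0 in WT thymus, and PSMB10, a subunit of the immunoproteasome, measured 19.6 and 45.1 in KO thymus, against 46.0 and 55.2 in WT thymus. The CTSV relative CTSL measured 9.72 and 16.2 in KO thymus, against 16.9 and 24.6 in WT thymus, and of 7 tested cathepsin and class II genes 0 passed (median −0.52, or 0.33 without KO2). The CCL25 receptor CCR9 was at 4.65 and 39.5 in KO2 and KO3, against 10.7 and 40.4 in WT2 and WT3. Of the 4 chemokine receptors 0 passed, with CXCR4 at 26.7 and 84.8 in KO thymus, against 115 and 200 in WT thymus (list median −1.07, or 0.19 without KO2). Of 9 partners of AIRE 0 passed, with a median of −0.34. SIRT1, a sirtuin reported in mice to act on AIRE, measured 6.23 and 9.54 in KO thymus, against 11.1 and 15.1 in WT thymus.

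Markers of the cells around the epithelium also differed between animals, in directions that varied by cell type, and their part in the members' differences was not tested. Of 23 thymocyte genes, 0 passed, 2 had a positive change, against 35.4% of all genes, and the median was −1.04. In 11 of them all KO libraries lay below all WT libraries, against 19.8% of all genes. RAG1, which recombines T cell receptor genes, measured 21.0 and 241 FPKM in KO2 and KO3, against 325 and 343 in WT2 and WT3. CD8B was at 63.0 and 385 in KO2 and KO3, against 470 and 479 in WT2 and WT3. Without KO2 the thymocyte median was −0.23, against a median of all genes of 0.00, and the median of the 3 medullary members was 1.66. KRT5, KRT14 and AIRE each measured more in KO3 than in either WT animal, with AIRE at 15.9 FPKM in KO3 and 12.3 in WT3. These values are no test of the part of the thymocytes.

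Of the other cells, 15 genes of cell division had 0 calls and a median of −0.74, with TOP2A at 18.3 and 40.0 FPKM in KO thymus, against 69.7 and 70.3 in WT thymus. The 9 fibroblast genes had 0 calls and a median of 0.86, with PDGFRB at 5.98 and 6.64 in KO thymus, against 2.17 and 2.53 in WT thymus. Summed fibroblast genes were at 514 and 313 FPKM in KO2 and KO3, against 271 and 173 in WT2 and WT3, the same order of genotypes as KRT5. The 4 tested adipocyte genes had 0 calls and a median of −1.65, with PLIN1 at 0.267 and 0.852 in KO thymus, against 8.47 and 2.66 in WT thymus. Medians were −0.74 for 5 B cell genes, −0.22 for 6 dendritic cell genes, −0.48 for 9 macrophage genes, 0.17 for 8 endothelial genes, 0.37 for 6 erythroid genes and 2.00 for 4 skeletal muscle genes, with 0 calls in each. Without KO2 the medians were −0.20 for B cell, 0.44 for dendritic cell, 0.36 for macrophage and 0.61 for endothelial genes. They were 0.89 for erythroid, 3.73 for skeletal muscle, 0.63 for fibroblast, −1.56 for adipocyte and −0.26 for cell division genes. Without KO3 the endothelial median was −0.28, the erythroid one 0.02 and the skeletal muscle one 0.33. Of 8 glucocorticoid response genes 0 passed, with FKBP5 at 8.45 and 43.7 in KO thymus, against 130 and 115 in WT thymus, and a list median of −0.71.

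**Figure D4:**
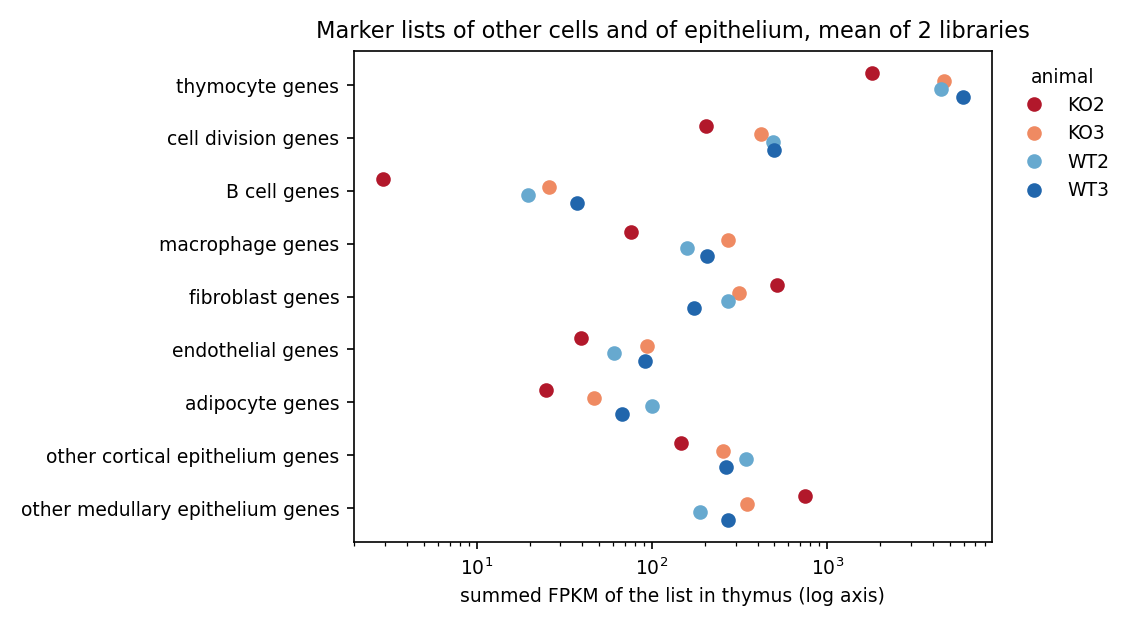
Summed FPKM of 9 gene lists in thymus on a log axis, 1 point per animal (mean of 2 libraries). KO2 is lowest for thymocyte genes (1805) and B cell genes (2.91) and highest for fibroblast genes (514) and medullary epithelium genes (747). Within the medullary list KRT17 alone measured 514 in KO2, so that sum mostly follows 1 gene.

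Across tissues, thymus held the highest mean of 9 of the 10 members. The exception was KRT8, with 148 FPKM in lung, 136 in liver and 117 in kidney, against 33.3 in thymus and 23.6 in heart (means of 4 animals). In 8 members the lowest thymus library lay above the highest library of any other tissue, which held for 5.06% of genes at a mean of 1 FPKM or more in thymus. TP63 was the other member without that gap, because muscle held 5.16 ± 2.56 FPKM against 6.49 ± 3.34 in thymus (SD, n = 4).

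**Figure D5:**
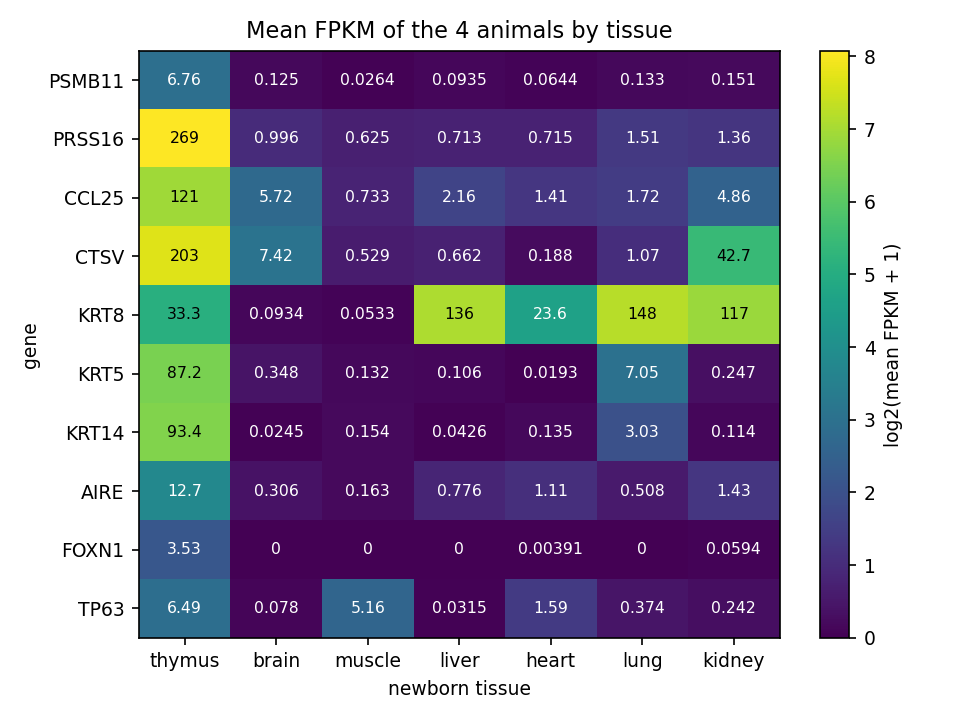
Mean FPKM over the 4 animals for each gene (rows) in each newborn tissue (columns), coloured by log2(mean FPKM + 1). Thymus has the highest value in every row but that of KRT8, and TP63 in muscle (5.16), CTSV in kidney (42.7) and KRT5 in lung (7.05) stand out elsewhere.

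Each animal's thymus level was then tested against the mean of its other 6 tissues, with limma on the 4 within-animal differences. All members except KRT8 passed as higher in thymus, 9 of 10, where 29.6% of 17567 genes passed in that direction. PRSS16 had the largest difference, 6.90 log2 units (SE 0.22, limma adjusted p = 1.2e-05), then CTSV at 5.93 (SE 0.14, adjusted p = 6.9e-06), KRT14 at 5.45 (SE 0.23, adjusted p = 1.9e-05) and KRT5 at 5.34 (SE 0.19, adjusted p = 1.5e-05). CCL25 was at 5.23, AIRE at 2.94, PSMB11 at 2.64, TP63 at 2.02 and FOXN1 at 2.00, the last 4 on a scale that understates low genes. KRT8 was at 0.49 (SE 0.22, adjusted p = 0.086), and it passed with a pseudocount of 0.1 (adjusted p = 0.0011) and without KO3 (0.026). The members were known thymus genes when chosen, so the direction is no independent finding.

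Outside thymus FOXN1 was listed at 0 in all 8 libraries of brain, muscle, liver and lung, at 0 in 7 of 8 libraries of heart, and at no more than 0.124 FPKM in any kidney library. PSMB11 stayed at or below 0.557 FPKM in every library outside thymus. Of the other 6 tissues, no neighbours in the order of PSMB11 levels were separated over the 4 animals. PRSS16 was next highest in lung, at 1.51 ± 0.81 FPKM (SD, n = 4), and AIRE in kidney, at 1.43 ± 1.14. AIRE was low in KO kidney, at 0.476 and 0.633 FPKM, against 2.96 and 1.64 in WT kidney, and did not pass limma's test there.

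Epithelial tissues gave the background for the keratins. In lung, where basal cells of the airway make both, KRT5 measured 6.67 and 8.93 FPKM in KO2 and KO3, against 2.84 and 9.76 in WT2 and WT3. KRT14 measured 5.12 and 4.11 in KO lung, against 0.413 and 2.48 in WT lung. KRT8 was low in KO3 in each of 3 tissues, at 34.8 FPKM in lung (201 in KO2, against 200 and 154 in WT), 30.3 in liver (157 in KO2, against 205 and 152 in WT) and 43.2 in kidney (83.9 in KO2, against 238 and 101 in WT). In muscle and brain KRT8 was under 0.2 FPKM in every animal.

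Kidney gave the only member call outside thymus. CTSV fell to 17.0 and 10.02 FPKM in KO kidney, against 82.1 and 61.7 in WT kidney, a log2 change of −2.36 (SE 0.33, limma adjusted p = 0.0068), where limma called 4.76% of genes as lower and the median of all genes was −0.04. Its libraries did not overlap between genotypes, and in thymus CTSV was within 1.16-fold over all 4 animals. The call was lost without WT2 (adjusted p = 0.057) and with no filter on low values (0.11). CTSV measured 6.19 and 6.88 FPKM in KO brain, against 10.9 and 5.75 in WT brain, with overlap. It was also lower in both KO animals in lung, at 0.678 and 0.308 FPKM, against 1.37 and 1.92 in WT (limma adjusted p = 0.77). In liver it was at 0.0642 and 0.265 in KO, against 0.601 and 1.72 in WT, under the filter and not tested. In muscle and heart, also under the filter, the CTSV values of the genotypes overlapped. CCL25 in brain was at 12.5 and 4.97 in KO2 and KO3, against 2.08 and 3.36 in WT2 and WT3. The members passed the filter on low values in 20 of the 60 member and tissue pairs outside thymus, and 0 pairs outside kidney passed limma's test. Limma called 2.32% of genes in muscle, 1.1% in liver, 0.18% in heart, 5.78% in kidney, and 0 in brain (1701 at an unadjusted p under 0.05) and in lung (963).

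Whether the KO change in thymus differed from that in the other 6 tissues was tested from each animal's own difference (n = 2 KO and 2 WT animals). None of the 10 members passed, with limma calling 0.00772% of 12961 genes. The median of all genes was −0.10, and relative to it KRT14 was at 2.66 (SE 0.45, adjusted p = 0.27), KRT5 at 2.27 (SE 0.37, adjusted p = 0.27), KRT8 at 2.16 (SE 0.44, adjusted p = 0.35) and AIRE at 1.75 (SE 0.43, adjusted p = 0.37). PRSS16 was at −1.92 (SE 0.44, adjusted p = 0.35), and 6 members had an unadjusted p under 0.05, against 11.8% of all genes. These differences hold changes in the other tissues as well as in thymus. Before centring, KRT8 was at −1.34 in liver, −1.06 in lung, −1.35 in kidney and 0.90 in heart. AIRE was at −1.31 in heart and −1.06 in kidney, and PRSS16 at 0.44 in lung and 0.78 in kidney. None of these passed limma's test. Without KO3, where KO2 alone stood for KO, the WT animals alone gave the spread and limma called 839 genes in place of 1, KRT14, KRT5, KRT8, PSMB11, PRSS16, TP63 and AIRE were among them, with adjusted p values from 0.0015 to 0.041. Without KO2 the lowest adjusted p values of the members were 0.054 (KRT14) and 0.063 (KRT5).

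The genes most like a cortical and a medullary member over the 28 animal-by-tissue values were found by Pearson's r of log2(FPKM + 1), among 11551 genes with a symbol and a mean of 1 FPKM or more in thymus. For PSMB11 they were LY9 (0.987), PRL (0.987), PVRIG (0.984), CD5 (0.983) and OR4E2 (0.982). LY9, PVRIG and CD5 are lymphocyte genes, and LY9 shared the low KO2, at 1.51 and 6.71 FPKM in KO2 and KO3 thymus, against 4.60 and 7.05 in WT2 and WT3 thymus. For AIRE they were the calmodulin-like CALML3 (0.920), FOXN1 (0.911), the keratin KRT9 (0.902), CRACR2A (0.902) and CALML5 (0.901). PSMB11 was at or below 0.557 FPKM in every library outside thymus, so its r values mostly follow thymus against the other tissues. They do not show that genes vary together between animals. The 28 values share 4 animals and their libraries, so each r is a description with no test.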

How the data were processed

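RNA was taken from ground tissue with TRIzol and RNeasy columns and sequenced from TruSeq libraries, per the labels' protocols. Cufflinks 2.0.2, HISAT 0.1.6 and CASAVA appear in the submitters' processing notes without stated roles. The authors deposited FPKM values, in a newborn and a separate fetal table. The sources used here give no genome build, annotation or strand setting. Coordinates are therefore left out, and reads of overlapping or antisense genes cannot be told apart. Of 11294 LOC identifiers, 721 were given a symbol from a RefSeq table (T2T-MFA8v1.1), used for names alone.

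Titles name 4 animals and a repeat number. Whether repeats are separate tissue pieces is not stated, so the 2 repeat libraries (r of 0.990 to 0.993 in thymus) were averaged as log2(FPKM + 1), and tests compare animals. Limma 3.58.1 in R 4.3.3 (lmFit, eBayes with a trend) was run on genes with a mean of 1 FPKM or more, with Benjamini-Hochberg adjustment over all genes tested and a threshold of 0.05. It was tested on simulated data. Log2 changes understate low genes, and SE is limma's moderated one.

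Members and lists were chosen with earlier results of these data known. Named genes were the members, up to 4 genes of each list with the smallest p in thymus, the 5 genes most like PSMB11 and the 5 most like AIRE, and SIRT6. PSMB5 falls outside this rule. Animal numbers were not used to pair genotypes in the main tests. The numbered deviations had r = 0.09 in thymus, which cannot show whether animals of the same number were handled together. Alternatives were leaving out each animal or library, a pseudocount of 0.1, no filter or one at 5 FPKM, quantile normalization, treating libraries as replicates, alone or correlated within an animal (statmod 1.5.0), a joint fit of the 7 tissues, and the animal number as a block.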

Additional observations from a re-analysis of the deposited data

How the results depend on the processing

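The design has 2 animals per genotype, and depth is unknown, so small differences were not detectable and large ones could also be missed. In thymus limma called 1 gene. A pseudocount of 0.1, no filter and the replicate block (animal number) gave 0 genes each (750, 1130 and 1079 at an unadjusted p under 0.05), and a filter at 5 FPKM gave 3. Libraries as replicates gave 1484 genes, with PRSS16, CCL25, KRT5, KRT14 and TP63 among them (adjusted p = 0.0062 for KRT5), but treat repeats of an animal as independent. The animal as a correlated unit gave 9 genes and 1 fit of all tissues 81, with KRT14 (0.0017), KRT5 (0.0099) and PRSS16 (0.049) among them. Leaving out an animal or library gave 0 to 533 genes, the most without KO3.

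For the thymus change against the change in other tissues, with 1 gene called, a pseudocount of 0.1, no filter and a filter at 5 FPKM gave 0 genes each (1554, 2411 and 885 at an unadjusted p under 0.05), the replicate block 54, with KRT5 (adjusted p = 0.029) and KRT14 (0.037) among them, and leaving out an animal 1 to 839. With an animal left out, PSMB11 ran from −1.78 (without KO3) to 0.23 (without KO2) in thymus and from −2.05 to 0.17 in this comparison, where CCL25 ran from −0.15 (without KO3) to 0.49 (without KO2) and turned to −0.11 with a pseudocount of 0.1. Thymus against the other tissues called 9003 to 11985 genes, against 11692, and the 9 members called kept their call under each alternative in which they were tested (FOXN1 did not reach the filter at 5 FPKM). The count of member calls outside thymus was 1, with 0 under no filter and 0 to 2 when an animal was left out (KRT8 in lung without KO2, CCL25 in brain without KO3). The cortical minus medullary difference ran from −2.48 without KRT8 to −2.07. The cause of these changes was not tested.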

Other observations

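In the fetal table, measured apart and with no thymus, both basal keratins were present in a single library. KRT14 was at 23.1 FPKM and KRT5 at 22.4 in 1 library of muscle at gestation month 4, against 0 and 0.0549 in the other library of that group. At month 2 muscle KRT14 was listed at 0 in both libraries and KRT5 was at 0.187 and 0.138 FPKM, and in fetal brain both genes were listed at 0 in all 4 libraries. TP63 did not share this, at 1.24 and 0.902 FPKM in muscle at month 2 and 1.82 and 2.17 at month 4. CCL25 in fetal muscle was at 6.67 and 5.82 FPKM at month 2 and 2.84 and 1.26 at month 4. Nothing states that fetal libraries come from separate fetuses, and these values were not tested.

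In newborn thymus the globin genes did not share a direction. HBZ, an embryonic globin gene, measured 23.6 and 57.6 FPKM in KO2 and KO3, against 0.385 and 0.564 in WT2 and WT3. HBB, the adult beta globin gene, measured 142 and 66.7 FPKM in KO2 and KO3, against 1409 and 1246 in WT2 and WT3. Neither passed limma's test in thymus.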
